A study of Mus musculus with 4 samples.

Results

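C1q-positive macrophages of the late fetal mouse lung were followed in 4 single-cell RNA libraries from E18.5 embryos, 2 labelled Dnmt1 CKO and 2 labelled wild type (WT). The mutant lungs carried Tbx4-rtTA, Tet-O-Cre and the Dnmt1-D/D alleles. In them a Tbx4-driven, doxycycline-dependent activator turns on Cre, which deletes part of Dnmt1, the enzyme that copies DNA methylation onto newly made strands. Tbx4 is a gene of the lung mesenchyme, so Cre is not directed to macrophages. The WT lungs are given as Wild type, with no further allele named, and separate animals behind the libraries are not stated. Every p-value below therefore measures the spread between these 4 libraries, which may be technical. The study asked which expression differences single cells of dnmt1-null and WT lungs show, and the macrophages address it in a lineage outside the targeted tissue.

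A barcode was taken as a C1q-positive macrophage when it had at least 5 unique transcript counts (UMIs) of C1qa, C1qb and C1qc together and at least 1 UMI of Tyrobp. It also had to carry at least 500 genes, at most 20% mitochondrial and at most 50% haemoglobin UMIs, less than 0.2% of its UMIs from Col1a1, Col1a2 and Col3a1, and no UMI of the epithelial gene Epcam or the endothelial gene Cdh5. In all, 970 of 27815 deposited barcodes met the rule, or 970 of the 20550 that passed the gene, mitochondrial and haemoglobin limits. Dnmt1 CKO replicates 1 and 2 gave 264 and 415 macrophages, and WT replicates 1 and 2 gave 137 and 154. The C1q, Tyrobp, collagen, Epcam, Cdh5, haemoglobin and mitochondrial values are those the cells were chosen by and are given below as a description only.

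C1qa, C1qb and C1qc encode the chains of C1q, which starts the classical complement cascade and also coats dying cells for uptake. Tissue macrophages are the main source of C1q. Tyrobp encodes DAP12, the signalling adaptor of Trem2 and other myeloid receptors. In the fetal lung, macrophages seeded from the yolk sac and fetal liver lie in the interstitium and around vessels, take up dying cells and red cell debris, and precede the alveolar macrophages, which mature around birth.

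The macrophages had median depths of 9956 and 8572 UMIs in Dnmt1 CKO replicates 1 and 2, and of 8168 and 9489 UMIs in WT replicates 1 and 2. Their summed counts came to 2697394 and 3899903 UMIs in Dnmt1 CKO, against 1089668 and 1514224 UMIs in WT. No macrophage barcode occurred in more than 1 library, and any pair of libraries shared between 8 and 16 of all deposited barcodes. A doublet caller marked 5 and 3 macrophages in Dnmt1 CKO and 4 and 5 in WT; they were kept, and left out as an alternative. Dnmt1 CKO replicate 1 and WT replicate 2 carried Y-linked UMIs and the other libraries did not, so each group held a library of either sex. Free RNA was present: at 3000 UMIs per barcode, 53.7% and 79.0% of Dnmt1 CKO macrophages, against 61.7% and 51.8% of WT macrophages, held a UMI of Sftpc, a surfactant gene of alveolar epithelium.

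The C1q genes were abundant and even across libraries. The median macrophage carried 109 and 113 C1q UMIs in Dnmt1 CKO, against 91 and 108 in WT, and all 3 chains were seen in 256 of 264 and 396 of 415 Dnmt1 CKO macrophages and in 128 of 137 and 146 of 154 WT macrophages. C1qb stood at 3995 and 4679 CPM, the UMI count scaled to the summed macrophage UMIs of a library, in Dnmt1 CKO and at 4197 and 4011 CPM in WT. The C1q genes are neighbours on chromosome 4, C1qb lying at chr4:136880129-136886187 on the minus strand (GENCODE vM21, GRCm38). Its upstream sequence is shown because this gene family defines the cells. It is RefSeq's, for GRCm38.p6, at chr4:136886201-136886320 on the minus strand, read 5′ to 3′ up to the base before the start, with the core of the site of PU.1, a factor of the myeloid lineage, in capitals.
C1qb: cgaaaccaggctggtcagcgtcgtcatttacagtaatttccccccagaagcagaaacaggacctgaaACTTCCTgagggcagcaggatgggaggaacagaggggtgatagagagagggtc
The motif searched was AGGAAGT on both strands, and 7.69% of the 32851 promoter windows of 250 upstream bases hold it. Such a match describes the letters and says nothing of binding.

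The macrophage label held against markers that the rule did not use. Csf1r, the receptor for the main macrophage growth factor, stood at 1175 and 796 CPM in Dnmt1 CKO and at 1157 and 1141 CPM in WT, and reached at most 29.8 CPM in all other barcodes of any library. Adgre1, which encodes the F4/80 antigen, stood at 391 and 376 CPM in Dnmt1 CKO and at 331 and 364 CPM in WT. By a fixed rule, the 15 genes with the largest ratio to the other barcodes in every library, among genes with at least 100 CPM, were Ccl24, Ccl12, Fcrls, Ms4a7, Pf4, Crybb1, C3ar1, Cx3cr1, Ccl3, Aif1, Ms4a6b, Mrc1, Il1a, F13a1 and Ccl4. Ccl24 was at least 84.8 times and Ccl4 at least 37.7 times as high in each library. The neutrophil gene S100a8 was scarce. At 3000 UMIs per barcode it was seen in 4 of 244 and 7 of 372 Dnmt1 CKO macrophages. In WT macrophages it was seen in 0 of 120 and 1 of 137, where 0 of 120 allow a share of up to 2.50%. Tyrobp-positive barcodes with 0 to 4 C1q UMIs are called C1q-low below. Of these, 56.5% and 35.9% held S100a8 in Dnmt1 CKO and 54.6% and 40.9% in WT. Genes of other leukocytes were present too. The dendritic cell list summed to 294.4 and 290.5 CPM in Dnmt1 CKO macrophages and to 285.4 and 270.8 CPM in WT ones. In C1q-low barcodes it summed to 145 and 168.1 CPM in Dnmt1 CKO and to 124 and 124.6 CPM in WT. At 3000 UMIs the monocyte gene Ccr2 was seen in 18 of 244 and 39 of 372 Dnmt1 CKO macrophages. In WT it was seen in 9 of 120 and 17 of 137. Csf1r and Adgre1 were not confined to the macrophages. At this depth C1q-low barcodes held Csf1r in 28.3% and 39.1% in Dnmt1 CKO and in 34.65% and 39.3% in WT. They held Adgre1 in 17.8% and 26.2% in Dnmt1 CKO and in 19.7% and 15.85% in WT.

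Most of the cells held a UMI of the interstitial macrophage gene Mrc1, and fewer held Lyve1, Cd163 or Folr2. At 3000 UMIs per barcode Mrc1, a mannose receptor, was detected in 90.2% and 80.9% of Dnmt1 CKO macrophages and in 87.5% and 83.2% of WT macrophages. At most 0.270% of Epcam-positive barcodes in any library held it. More of the C1q-low barcodes did, 113 of 506 and 89 of 343 in Dnmt1 CKO and 46 of 355 and 73 of 328 in WT. Lyve1, a hyaluronan receptor of perivascular macrophages, was detected in 39.3% and 19.4% of Dnmt1 CKO and in 39.2% and 29.9% of WT macrophages. Cd163, another gene of the interstitial macrophage list, was detected in 20.5% and 13.2% of Dnmt1 CKO and in 27.5% and 40.9% of WT macrophages. Folr2 was detected in 27.9% and 16.4% of Dnmt1 CKO and in 19.2% and 11.7% of WT macrophages. Genes of the alveolar macrophage list varied in how often they were seen. Fabp5, a fatty acid carrier that other cells express too, was seen in 45.1% and 62.1% of Dnmt1 CKO and in 36 of 120 and 35 of 137 WT macrophages, against 52.2% to 59.3% of Epcam-positive barcodes. Ear2, a ribonuclease gene, was seen in 2.87% and 1.88% of Dnmt1 CKO macrophages and in 1.67% and 0.730% of WT macrophages, while 59.3% and 53.9% of C1q-low barcodes in Dnmt1 CKO and 56.1% and 51.5% in WT held it.

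A minority had no Mrc1 UMI at 3000 UMIs and differed in other genes too, in each library. F13a1, a transglutaminase of resident macrophages and monocytes, was found in 210 of 220 and 262 of 301 Mrc1-positive Dnmt1 CKO macrophages, and in 13 of 24 and 39 of 71 of those without Mrc1. In WT it was found in 102 of 105 and 109 of 114 with Mrc1, and in 7 of 15 and 11 of 23 without. Ly6c2, a gene of classical monocytes, was found in 0 of 220 and 3 of 301 macrophages with Mrc1 and in 2 of 24 and 15 of 71 without it in Dnmt1 CKO, and in 0 of 105 and 0 of 114 with Mrc1 and 5 of 15 and 10 of 23 without it in WT. The rule thus takes in some barcodes with Ly6c2. Barcodes near the rule's threshold were pooled over the 4 libraries and not thinned, so their depths differ. Just outside the threshold, 19 barcodes with 3 to 4 C1q UMIs (median depth 7780 UMIs) had Mrc1 in 21.1% and Ly6c2 in 31.6%. Just inside it, 42 barcodes with 5 to 9 C1q UMIs (median depth 4222 UMIs) had Mrc1 in 26.2% and Ly6c2 in 26.2%. The 928 with 10 or more (median depth 8968 UMIs) had Mrc1 in 90.7% and Ly6c2 in 4.31%. The part of depth in these shares was not tested.

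The macrophages' shares of the libraries did not overlap between the groups, with both Dnmt1 CKO libraries above both WT libraries. They were 6.03% (exact 95% binomial interval 5.34 to 6.78) and 7.22% (6.57 to 7.92) of quality-passing barcodes in Dnmt1 CKO replicates 1 and 2, against 2.57% (2.16 to 3.03) and 3.02% (2.57 to 3.53) in WT replicates 1 and 2. The means were 6.62 ± 0.843% in Dnmt1 CKO and 2.80 ± 0.321% in WT (SD, n = 2 each), a ratio of 2.37. The exact two-sided permutation test gave p = 0.3333, the smallest that 2 libraries against 2 allow. C1q-low barcodes overlapped between groups, at 12.4% and 7.01% in Dnmt1 CKO and 8.08% and 7.07% in WT. Among barcodes under the collagen limit, a denominator without the collagen-rich cells, the macrophages were 14.4% and 13.9% in Dnmt1 CKO and 5.24% and 6.01% in WT. Among Tyrobp-positive quality-passing barcodes they were 25.4% and 35.7% in Dnmt1 CKO and 18.1% and 22.25% in WT, a smaller ratio of 1.51. There the intervals of Dnmt1 CKO replicate 1 (22.7 to 28.1) and WT replicate 2 (19.2 to 25.5) overlapped. Before the filters, of deposited barcodes, they were 3.76% and 5.31% in Dnmt1 CKO and 2.05% and 2.45% in WT, with 2513 and 1910 barcodes under 500 genes in Dnmt1 CKO and 1294 and 1041 in WT. The shares are of barcodes from a digested, filtered suspension after red cell lysis, so how well each cell type was released in either group was not tested, and the intervals cover counting error only.

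**Figure D1:**
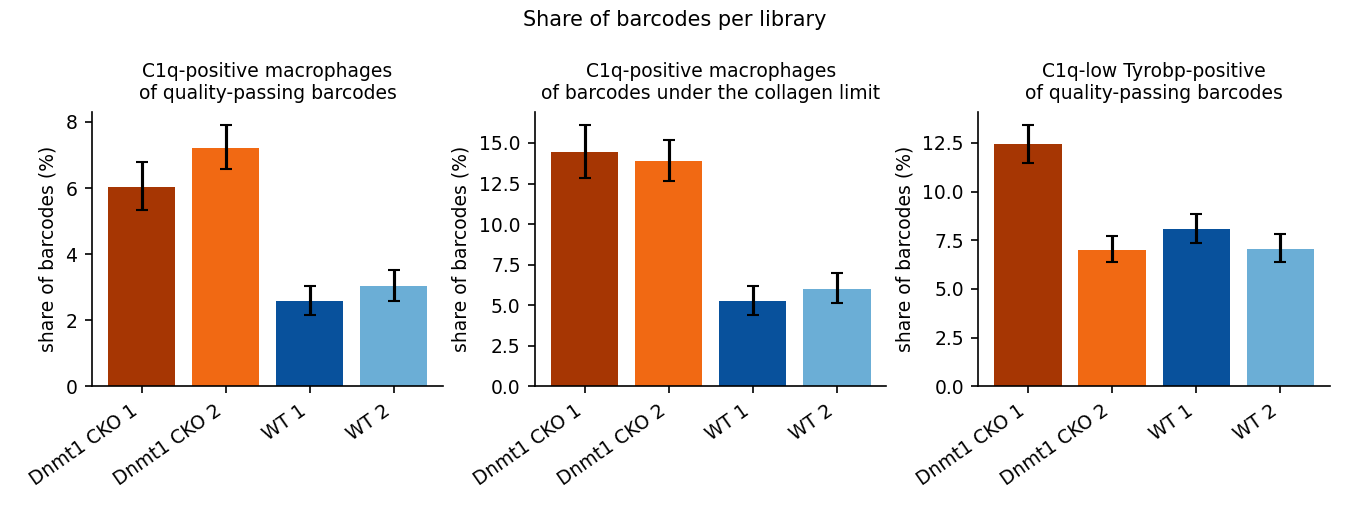
Share of barcodes in each library (percent, bars, with exact 95% binomial intervals), Dnmt1 CKO left of WT. C1q-positive macrophages are at 6.03% and 7.22% in Dnmt1 CKO against 2.57% and 3.02% in WT, whereas the C1q-low shares of the groups overlap.

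UMIs were then summed over the macrophages of each library and tested with edgeR's quasi-likelihood test, Benjamini-Hochberg adjusted over 9570 genes. Such sums cannot tell a different mix of macrophage kinds from a change in each cell. At an adjusted p under 0.05, 2 genes were higher in Dnmt1 CKO (0.0209% of the genes tested), Spp1 and Gpnmb, and 9 were lower (0.0940%), Ifi44, Ifi44l, Mfap4, Tcf21, Postn, Klf4, H2-Eb1, Pdzd2 and Fhl1. Fold changes are log2 of Dnmt1 CKO over WT. At an unadjusted p under 0.05, 358 of the 9570 genes were higher and 449 lower, and the median over all genes was -0.01. These counts, and the 0.0209% and 0.0940% called, are the background for the counts of every gene list below. The calls depend on each WT library: edgeR called 0 genes without WT replicate 1 (901 at an unadjusted p under 0.05) and 0 without WT replicate 2 (610), and also 0 with sex as a covariate (600). DESeq2 called 36 genes, among them all 11.

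Osteopontin and GPNMB were the transcripts that rose. Spp1 (chr5:104435118-104441050, plus strand, GRCm38), which encodes osteopontin, a secreted matrix and signalling protein, stood at 335.5 and 257 CPM in Dnmt1 CKO macrophages, against 60.6 and 77.3 CPM in WT macrophages (log2 2.12, SE 0.23, edgeR adjusted p = 0.0227). Gpnmb (chr6:49036546-49070929, plus strand), a transmembrane glycoprotein of lysosomes that macrophages make under lysosomal load, stood at 137 and 91.8 CPM in Dnmt1 CKO and at 19.3 and 25.1 CPM in WT (log2 2.37, SE 0.27, edgeR adjusted p = 0.0307). In both genes the Dnmt1 CKO libraries lay above the WT libraries with no overlap. Over 17 alternative settings Spp1 ranged between 1.99 and 2.34 and was called in 14, and Gpnmb ranged between 1.99 and 2.60 and was called in 12.

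Both transcripts were found in minorities of the cells. A UMI of Spp1 was found in 81 of 264 and 124 of 415 Dnmt1 CKO macrophages, against 13 of 137 and 16 of 154 WT macrophages. For Gpnmb the counts were 51 of 264 and 55 of 415 in Dnmt1 CKO, against 10 of 137 and 10 of 154 in WT. At 3000 UMIs per barcode Spp1 was seen in 62 of 244 and 77 of 372 Dnmt1 CKO macrophages and in 9 of 120 and 8 of 137 WT macrophages. It was seen in at most 0.159% of Epcam-positive barcodes. C1q-low barcodes held it too, 31 of 506 and 36 of 343 in Dnmt1 CKO and 14 of 355 and 44 of 328 in WT. In WT replicate 2 the C1q-low share was above that of the macrophages. At that depth 7 of 32 and 10 of 36 Gpnmb-positive Dnmt1 CKO macrophages held Spp1, against 55 of 212 and 67 of 336 Gpnmb-negative ones, so most Gpnmb-positive macrophages had no Spp1 UMI at this depth. The 10% of macrophages richest in Gpnmb held 91.1% and 95.8% of its UMIs in Dnmt1 CKO.

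**Figure D2:**
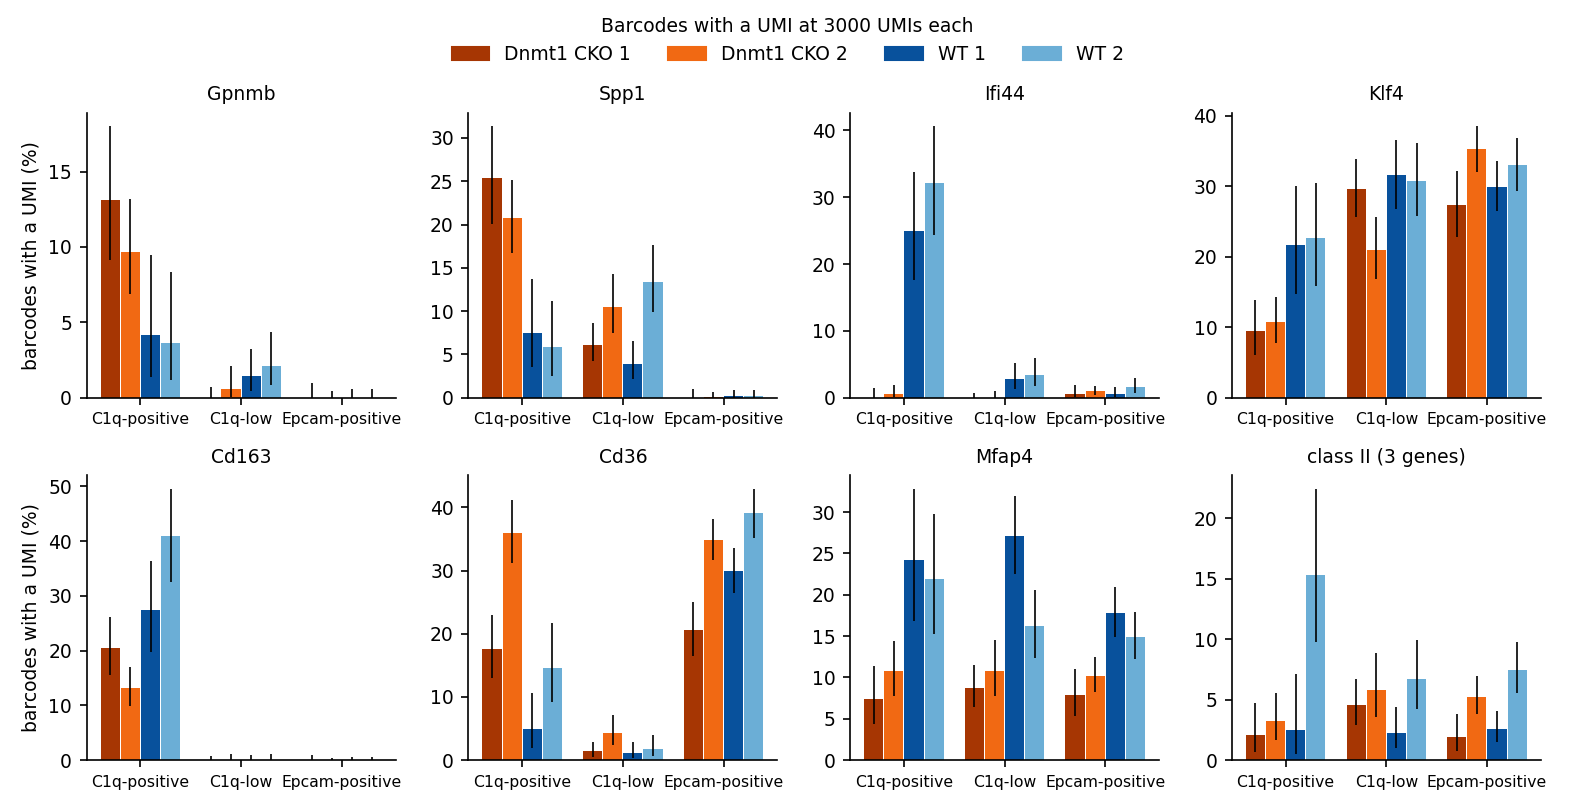
Percent of barcodes with a UMI of each gene after thinning to 3000 UMIs, in C1q-positive, C1q-low and Epcam-positive barcodes (bars, exact 95% binomial intervals), Dnmt1 CKO left of WT. Spp1 and Gpnmb are more frequent and Ifi44 and Klf4 less frequent in Dnmt1 CKO macrophages. In Dnmt1 CKO, Mfap4 is seen about as often in Epcam-positive barcodes as in macrophages. In WT it is seen in more of the macrophages (mean 23.04%) than of the Epcam-positive barcodes (mean 16.35%).

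Lysosomal genes had mostly positive fold changes. Of 33 lysosomal genes tested, 28 had a positive fold change (median 0.36, against -0.01 for all genes), 1 was called higher (Gpnmb) and 0 lower, with 8 higher and 0 lower at an unadjusted p under 0.05. Their groups did not overlap, with Dnmt1 CKO higher, in 20 of the 33, against 17.9% of all genes tested. Ctsd, the protease cathepsin D, stood at 1819 and 2760 CPM in Dnmt1 CKO against 836 and 856.5 in WT (log2 1.48, SE 0.27, edgeR adjusted p = 0.138). Lipa, the lysosomal acid lipase, stood at 224 and 305 CPM in Dnmt1 CKO against 80.8 and 123.5 in WT (log2 1.41, SE 0.28, edgeR adjusted p = 0.163). Neither passed the threshold, although neither overlapped. Per cell, the list took a median of 1.83% and 2.19% of UMIs in Dnmt1 CKO and of 1.69% and 1.66% in WT.

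Lipid handling and iron handling genes had positive medians and few calls. Of 24 lipid genes tested, 2 were called higher, Spp1 and Gpnmb, and 0 lower (median 0.31). At an unadjusted p under 0.05, 10 were higher and 4 lower, against 358 and 449 of all 9570 genes. Lpl, lipoprotein lipase, stood at 204 and 318.5 CPM in Dnmt1 CKO against 89.0 and 122 in WT (log2 1.34, SE 0.29, edgeR adjusted p = 0.184), and Fabp5 at 446 and 1781 CPM against 133 and 220 (log2 2.71, SE 0.59, edgeR adjusted p = 0.198). Both are also in the alveolar macrophage list, of which 9 of 12 tested had a positive fold change (median 0.48), 0 were called by edgeR and 2 were higher and 0 lower at an unadjusted p under 0.05. That list summed to 953 and 2603 CPM in Dnmt1 CKO macrophages and to 427 and 966 CPM in WT macrophages, with overlap. Of 20 haem and iron genes, 0 were called either way by edgeR (median 0.49). At an unadjusted p under 0.05, 6 were higher and 1 lower, against the same background of 358 and 449 of 9570. Hmox1, which degrades haem, stood at 1970 and 4944 CPM in Dnmt1 CKO against 546 and 856.5 in WT (log2 2.35, SE 0.44, edgeR adjusted p = 0.146), and the iron exporter Slc40a1 at 573 and 637.5 CPM against 323 and 287 (log2 1.02, SE 0.22, edgeR adjusted p = 0.184). Cd163, the receptor that takes up haemoglobin with haptoglobin, lay the other way, at 86.0 and 72.1 CPM in Dnmt1 CKO against 170 and 248 in WT (log2 -1.38, SE 0.23, edgeR adjusted p = 0.110).

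Dnmt1 CKO replicate 2 stood apart within its group for several of these genes. Its Fabp5 and Hmox1 levels were well above those of replicate 1, its Mrc1 was lower, at 938 against 1744 CPM, and its list of interstitial macrophage genes took a median of 0.892% of UMIs per cell, against 1.74% in Dnmt1 CKO replicate 1 and 1.77% and 1.72% in the WT libraries. Without Dnmt1 CKO replicate 1, 248 genes were called by edgeR, and without replicate 2, 56. Both sets held all 11.

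**Figure D3:**
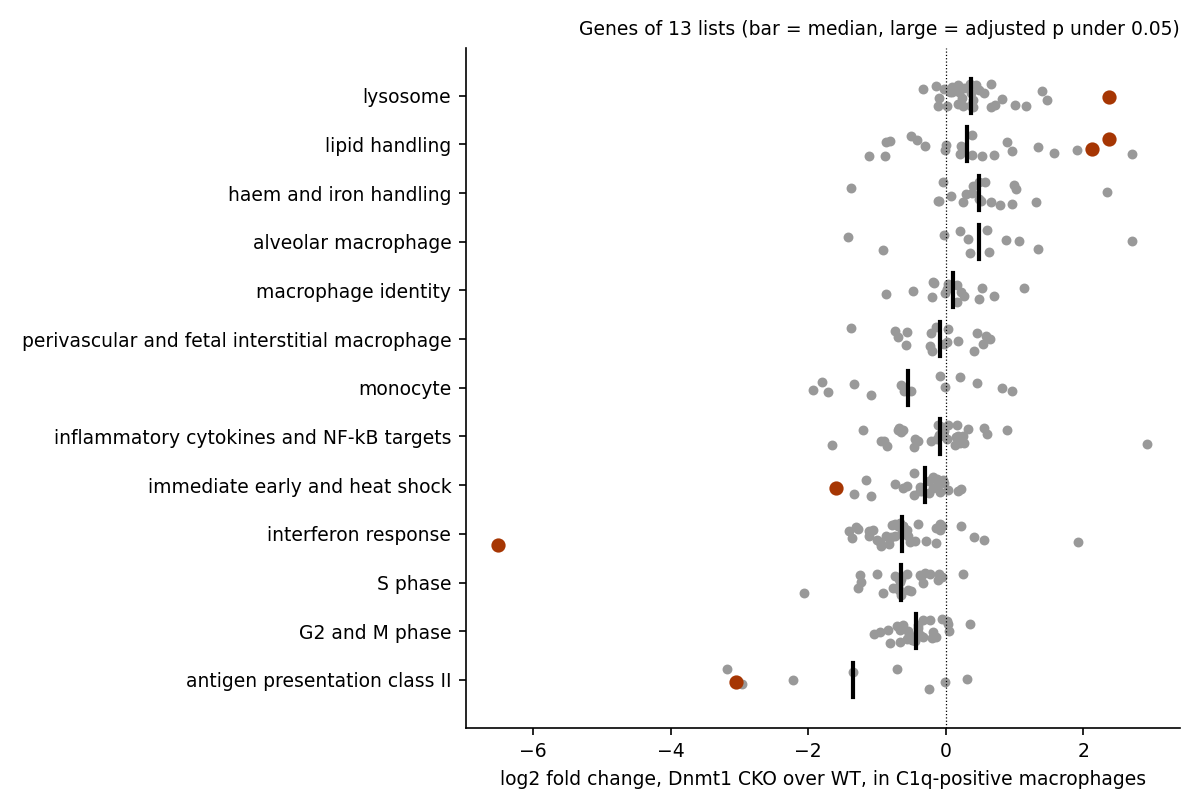
Log2 fold change, Dnmt1 CKO over WT, of each tested gene of 13 lists in the summed C1q-positive macrophages (points), with the list's median (bar). Large points passed an adjusted p of 0.05; lysosomal genes lie mostly right of 0 and interferon, S phase and class II genes mostly left.

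To see whether the changes belonged to the C1q-positive cells, the genotype difference was compared with that in the C1q-low barcodes of the same libraries, with the library as a term in the fit. These barcodes express genes of the alveolar macrophage, monocyte, neutrophil and mast cell lists. Their mast cell and basophil genes summed to 1892 and 3035 CPM in Dnmt1 CKO and to 769.7 and 772.7 CPM in WT, and their neutrophil genes to 3762 and 2552 CPM in Dnmt1 CKO and to 7709 and 3409 CPM in WT. The part of this mix in the differences was not tested. Of 11240 genes, 12 differed at an adjusted p under 0.05 (0.107%), 8 of them more positive in the macrophages, Gpnmb, Spp1, Clec4d, Pld3, Creg1, Ctsd, Fth1 and Lyz2, and 4 more negative, H2-Eb1, H2-Aa, H2-Ab1 and Cd74, class II genes whose UMIs came from few barcodes, as described with them. Gpnmb had the largest difference (log2 5.13, SE 0.63, edgeR adjusted p = 0.0233), against a log2 fold change of 2.37 in the macrophages alone. In C1q-low barcodes it stood at 1.20 and 4.61 CPM in Dnmt1 CKO, against 20.4 and 13.9 in WT, so there the WT libraries were the higher ones. These levels rest on few C1q-low barcodes with a Gpnmb UMI, 3 of 544 and 6 of 403 in Dnmt1 CKO and 12 of 431 and 11 of 360 in WT. The C1q-low barcodes held Spp1 at 39.7 and 59.5 CPM in Dnmt1 CKO against 86.3 and 129 in WT (log2 difference 3.21, SE 0.33, edgeR adjusted p = 0.00860).

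The other 6 more positive genes were Creg1, Ctsd, Pld3, Clec4d, Fth1, a ferritin chain gene, and Lyz2, the lysozyme gene of myeloid cells. Creg1, an endolysosomal glycoprotein, stood at 539 and 996 CPM in Dnmt1 CKO macrophages against 221 and 197.5 in WT macrophages, while C1q-low barcodes had 182 and 301 in Dnmt1 CKO against 201.5 and 210 in WT (log2 difference 1.59, edgeR adjusted p = 0.0233). Ctsd had a difference of 1.27 (edgeR adjusted p = 0.0257) and Pld3, a lysosomal nuclease, of 1.75 (edgeR adjusted p = 0.0326). Clec4d, a C-type lectin receptor, had a difference of 1.86 (edgeR adjusted p = 0.0257), with 60.4 and 186 CPM in Dnmt1 CKO macrophages, where replicate 2 stood well above replicate 1, against 45.0 and 29.1 in WT macrophages. Without the library term edgeR called 0 genes (382 at an unadjusted p under 0.05), and without any 1 library between 24 and 38. Gpnmb, Spp1 and Fth1 were called with each library left out. Creg1, Ctsd, Clec4d and Lyz2 were not called without WT replicate 2 (adjusted p 0.0558, 0.110, 0.0542 and 0.0542), Clec4d and Pld3 not without Dnmt1 CKO replicate 2 (both 0.0523), and Lyz2 not without WT replicate 1 (0.118). With the newer estimator Gpnmb, Pld3, Fth1 and Lyz2 were not called (0.0502, 0.0523, 0.0948 and 0.126). With a higher threshold of 10 C1q UMIs the same 8 more positive genes were called, Gpnmb at log2 5.18, Spp1 at 3.26, Creg1 at 1.59, Ctsd at 1.26 and Pld3 at 1.76.

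Set against all other quality-passing barcodes, 9 of 18487 genes differed (0.0487%), 4 more positive in the macrophages, Gpx3, Cd36, Spp1 and Gstm1, and 5 more negative, Ifi44, H2-Ab1, H2-Eb1, Ly86 and Cxcl10. For Gpx3, a secreted glutathione peroxidase, the difference (log2 2.87, SE 0.29, edgeR adjusted p = 0.0363) came mostly from the other barcodes, at 51.3 and 62.9 CPM in Dnmt1 CKO against 324.5 and 217 in WT, while macrophages had 215 and 195 against 133 and 147. Ly86, a partner of an innate receptor, likewise stood at 277 and 315 CPM in Dnmt1 CKO macrophages against 326 and 302 in WT ones, but at 68.6 and 65.0 against 16.6 and 18.0 in the other barcodes. Cd36, a fatty acid and scavenger receptor, stood at 94.9 and 259 CPM in Dnmt1 CKO macrophages against 32.1 and 64.1 in WT ones (log2 difference 2.68, edgeR adjusted p = 0.0181). In the macrophages alone it was not called (edgeR adjusted p = 0.310), though 3 of 17 alternatives called it, and 20.5% to 39.1% of Epcam-positive barcodes held it at 3000 UMIs. With any 1 library left out edgeR called 0 or 1 gene (805 to 1563 at an unadjusted p under 0.05), and none of these 9 was among the calls (lowest adjusted p 0.196).

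**Figure D4:**
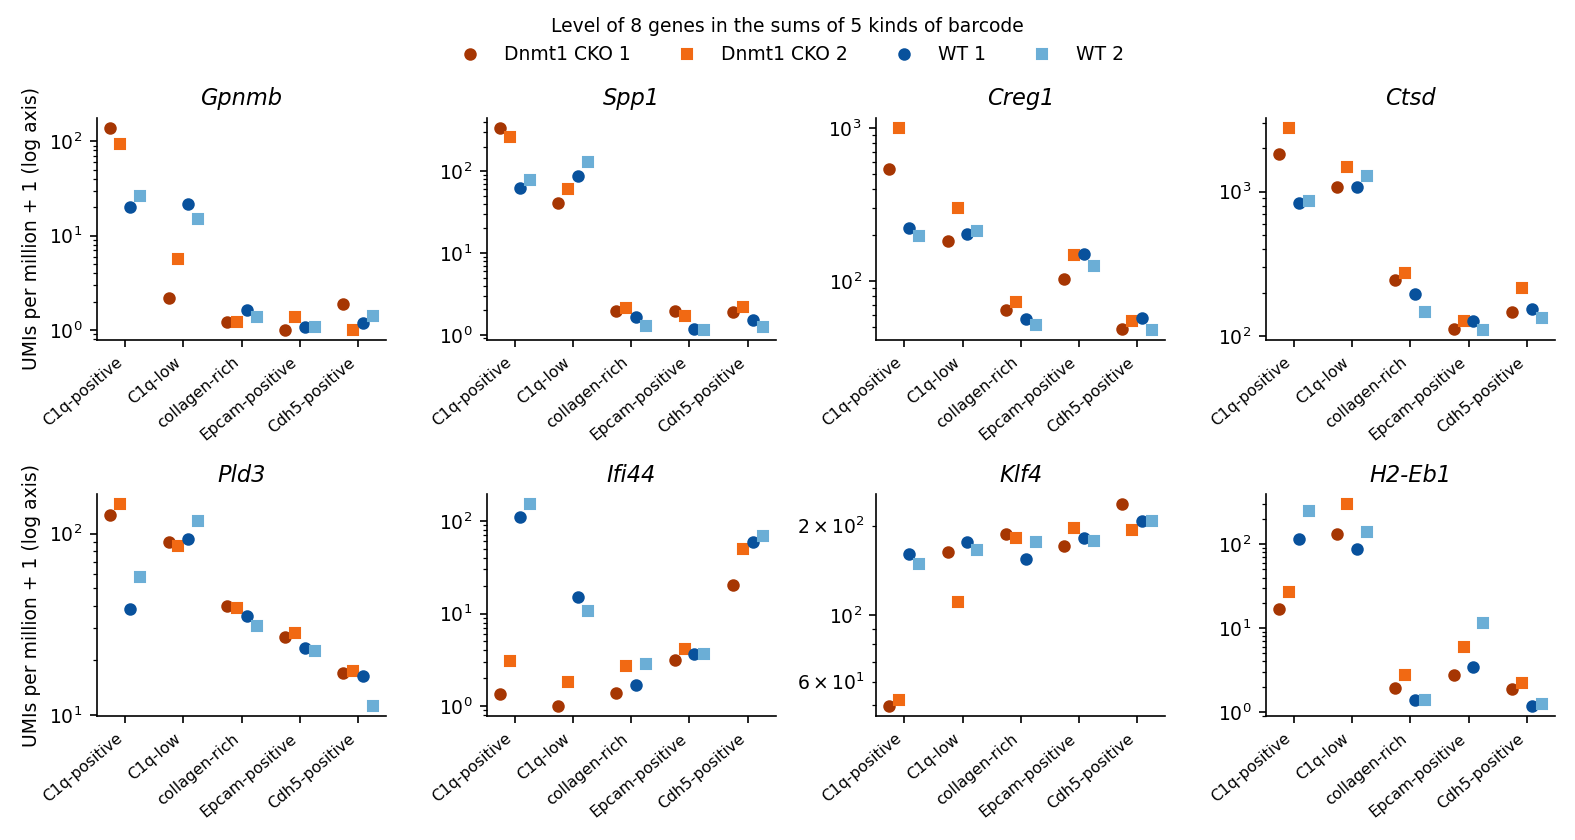
CPM plus 1 (log axis) of 8 genes in the summed C1q-positive, C1q-low, collagen-rich, Epcam-positive and Cdh5-positive barcodes, 1 point per library, Dnmt1 CKO (warm colours) left of WT (blue). In macrophages the Dnmt1 CKO points of Spp1, Gpnmb, Creg1, Ctsd and Pld3 lie above the WT points and those of Ifi44, Klf4 and H2-Eb1 below them, and the C1q-low barcodes do not show the same order for Spp1, Gpnmb and H2-Eb1.

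The largest fall was in a pair of neighbouring interferon-induced genes. Ifi44 (chr3:151730922-151749960, minus strand) stood at 0.371 and 2.05 CPM in Dnmt1 CKO macrophages, against 110 and 150 CPM in WT macrophages (log2 -6.50, SE 0.45, edgeR adjusted p = 0.00134). It was found in 1 of 264 and 7 of 415 Dnmt1 CKO macrophages, against 58 of 137 and 84 of 154 WT macrophages. Ifi44l (chr3:151758737-151762892, minus strand) had 0 UMIs in Dnmt1 CKO, where 0 of 264 and 0 of 415 macrophages allow shares up to 1.14% and 0.723%, against 40 of 137 and 51 of 154 WT macrophages. From 3 UMIs over the Dnmt1 CKO group, Ifi44l was at least 123-fold lower. Its level in other barcodes is not given here, so its absence cannot be taken as particular to macrophages.

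Ifi44 was not lost everywhere in the mutant lungs. Cdh5-positive barcodes, the other population that expressed it well, had 19.5 and 49.0 CPM in Dnmt1 CKO against 58.2 and 67.8 in WT. In C1q-low barcodes it stood at 0.00 and 0.838 CPM in Dnmt1 CKO against 14.3 and 9.56 in WT. Ifi44 was not among the 12 genes whose genotype difference was called against C1q-low barcodes, so its fall was not shown to be particular to macrophages. Its fall in macrophages exceeded that in all other barcodes (log2 difference -5.06, SE 0.35, edgeR adjusted p = 0.0102), and its fall in macrophages was called in 14 of 17 alternatives, with a highest adjusted p of 0.121.

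Other interferon genes had mostly negative fold changes that did not pass the test one by one. Of 39 interferon response genes tested, 0 were called higher and 1 lower, Ifi44, with 4 of 39 positive, 0 higher and 12 lower at an unadjusted p under 0.05 and a median of -0.63. In 17 of the 39 the groups did not overlap with Dnmt1 CKO lower, against 21.0% of all genes. Slfn5 stood at 51.9 and 108.5 CPM in Dnmt1 CKO against 163 and 278 in WT (log2 -1.41, SE 0.38, edgeR adjusted p = 0.334), and the nucleic acid sensor Ifi204 at 161 and 227 against 304 and 363 (log2 -0.74, SE 0.25, edgeR adjusted p = 0.488). Cxcl10, a chemokine for T cells, stood at 301 and 321 CPM in Dnmt1 CKO against 659 and 312 in WT, with overlap. Class I antigen presentation genes, which interferon also induces, had a median of 0.47, with 0 of 14 called by edgeR and 0 at an unadjusted p under 0.05, and H2-K1 stood at 254 and 1051 CPM in Dnmt1 CKO against 292 and 370 in WT.

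Of the class II antigen presentation genes H2-Eb1 was called lower, and nearly all class II UMIs lay in few cells. H2-Eb1 (chr17:34305867-34316674, plus strand), the beta chain of the I-E molecule, stood at 15.9 and 26.2 CPM in Dnmt1 CKO against 113 and 248 in WT (log2 -3.04, SE 0.40, edgeR adjusted p = 0.0481). H2-Aa, an I-A chain, stood at 21.5 and 45.6 against 150 and 487 (log2 -3.18, SE 0.55, edgeR adjusted p = 0.113). Of 9 class II genes tested, 0 were called higher and 1 lower (median -1.35), with 0 higher and 6 lower at an unadjusted p under 0.05. The promoters of class II genes carry a shared set of boxes bound by a common complex, among them the Y box, an inverted CCAAT element. The sequences below, RefSeq's for GRCm38.p6, end at the base before the start and are read 5′ to 3′, with the Y box letters CTGATTGG in capitals; Spp1, which moved the other way, is shown because its first listed start has these letters too.
H2-Aa: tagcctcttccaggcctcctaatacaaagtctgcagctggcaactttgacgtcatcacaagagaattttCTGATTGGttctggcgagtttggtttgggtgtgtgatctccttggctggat
H2-Eb1: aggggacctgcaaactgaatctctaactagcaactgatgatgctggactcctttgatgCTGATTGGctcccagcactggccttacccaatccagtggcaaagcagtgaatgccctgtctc
Spp1: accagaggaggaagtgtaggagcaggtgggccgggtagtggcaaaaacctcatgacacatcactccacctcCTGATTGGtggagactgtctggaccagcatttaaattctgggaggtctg
These lie at chr17:34287824-34287943 on the minus strand, chr17:34305747-34305866 on the plus strand and chr5:104434991-104435110 on the plus strand. Searched on both strands, CTGATTGG occurs in 3.83% of the 32851 windows of 250 upstream bases. The match is a description of these letters only.

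The limit used to describe the class II-rich barcodes was chosen after the values were seen. Over H2-Aa, H2-Ab1 and H2-Eb1, 2 of 264 and 5 of 415 Dnmt1 CKO macrophages had at least 10 UMIs, against 2 of 137 and 14 of 154 WT macrophages. These barcodes held 142 of 156 and 412 of 441 class II UMIs in Dnmt1 CKO, against 424 of 430 and 1637 of 1669 in WT. In WT replicate 1 the 2 barcodes had 8 and 9 C1q UMIs, close to the threshold, and both carried Cd209a, a gene of dendritic cells and monocyte-derived cells. With at least 10 C1q UMIs required, H2-Eb1 stood at log2 -2.23 and was not called (edgeR adjusted p = 0.669), and the differences of H2-Eb1, H2-Aa, H2-Ab1 and Cd74 from the C1q-low barcodes were lost too (adjusted p 0.798, 0.816, 0.816 and 0.610). Class II-rich barcodes were 3.49% and 4.22% of C1q-low barcodes in Dnmt1 CKO and 1.86% and 4.44% in WT.

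**Figure D5:**
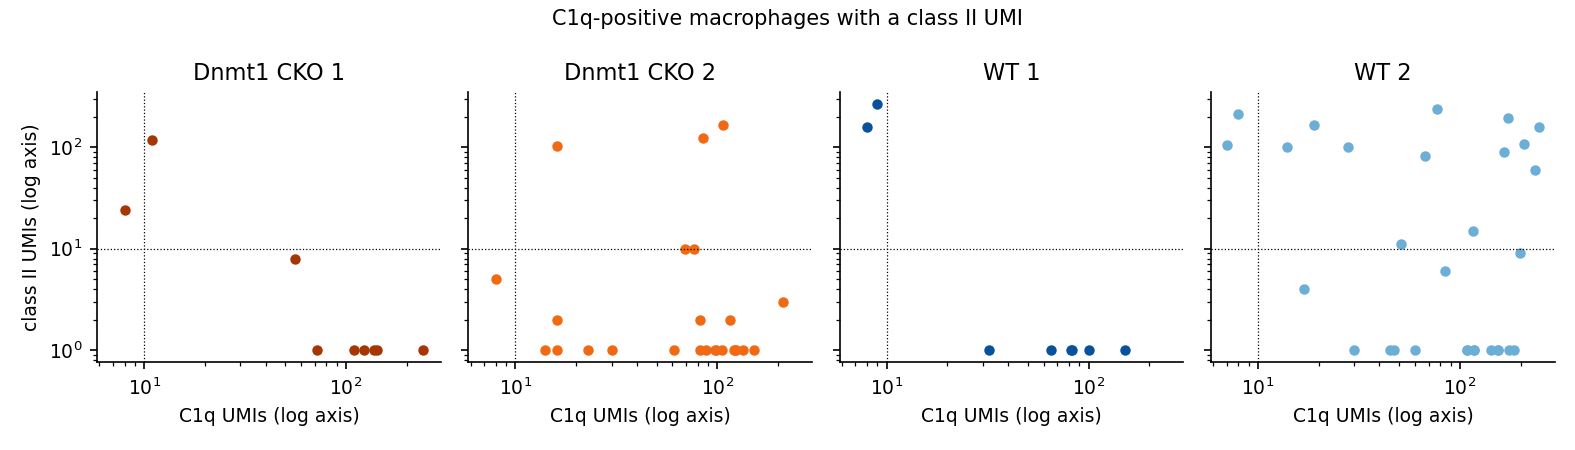
C1q UMIs against summed H2-Aa, H2-Ab1 and H2-Eb1 UMIs (both log axes) in every C1q-positive macrophage with a class II UMI, 1 panel per library, Dnmt1 CKO left of WT; dotted lines mark 10 UMIs. WT replicate 1 has 2 class II-rich barcodes, with 8 and 9 C1q UMIs, and WT replicate 2 has 14, at 7 to 247 C1q UMIs.

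Klf4, an immediate early transcription factor gene that macrophages express, fell. It stood at 48.6 and 51.0 CPM in Dnmt1 CKO macrophages against 160 and 147 in WT macrophages (log2 -1.59, SE 0.21, edgeR adjusted p = 0.0441). At 3000 UMIs it was detected in 9.43% and 10.8% of Dnmt1 CKO and 21.7% and 22.6% of WT macrophages. C1q-low barcodes had 29.6% and 21.0% in Dnmt1 CKO against 31.55% and 30.8% in WT at that depth, and 52.4% and 27.5% against 41.5% and 50.6% without thinning. C1q-low, collagen-rich, Epcam-positive and Cdh5-positive barcodes all held at least 110.3 CPM in every library. Klf4 was not called in either comparison of the genotype difference with other barcodes. Of 24 immediate early and heat shock genes, 0 were called higher and 1 lower, with 0 higher and 5 lower at an unadjusted p under 0.05 (median -0.30). Fosb stood at 170.5 and 167 CPM in Dnmt1 CKO against 283 and 448 in WT (log2 -1.09, SE 0.25, edgeR adjusted p = 0.231). These genes also respond to tissue digestion, and a difference in handling between the libraries was not tested.

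Cytokine and chemokine genes gave no single direction. Of 33 tested, 0 were called by edgeR (median -0.08). At an unadjusted p under 0.05, 2 were higher and 6 lower, against 358 and 449 of all 9570 genes. Il1b stood at 862 and 834 CPM in Dnmt1 CKO against 1827 and 2176 in WT (log2 -1.21, SE 0.22, edgeR adjusted p = 0.121), and the chemokine Ccl12 at 882 and 811 against 1561 and 1735 (log2 -0.93, SE 0.21, edgeR adjusted p = 0.216). Saa3, an acute phase apolipoprotein, stood at 27.8 and 19.2 CPM in Dnmt1 CKO against 2.75 and 3.30 in WT (log2 2.93, SE 0.41, edgeR adjusted p = 0.0570). At 3000 UMIs Saa3 was seen in 3.28% and 4.30% of Dnmt1 CKO macrophages, below the 11.4% and 7.31% of Dnmt1 CKO Epcam-positive barcodes, and the part of free RNA was not tested.

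Among genes for signals to other lung cells, Spp1 was the called member of 24 tested. Igf1, a growth factor that interstitial macrophages secrete, stood at 595 and 524 CPM in Dnmt1 CKO against 316 and 331.5 in WT (log2 0.82, SE 0.20, edgeR adjusted p = 0.297). Areg, an EGF receptor ligand, stood at 8.90 and 12.6 against 37.6 and 42.9 (log2 -1.85, SE 0.29, edgeR adjusted p = 0.0995). At 3000 UMIs Areg was seen in 1.23% and 2.96% of Dnmt1 CKO and 3.33% and 2.92% of WT macrophages, against 31.5% to 43.3% of Epcam-positive barcodes.

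S phase genes had mostly negative fold changes in the sums, while the shares of barcodes with a UMI of a proliferation gene overlapped. Of 27 S phase genes tested, 0 were called by edgeR (median -0.65). At an unadjusted p under 0.05, 0 were higher and 11 lower, against 358 and 449 of all 9570 genes. In 17 of the 27 the groups did not overlap with Dnmt1 CKO lower, against 21.0% of all genes. Mcm4, a helicase subunit, stood at 22.2 and 18.2 CPM in Dnmt1 CKO against 44.1 and 52.8 in WT (log2 -1.24, SE 0.25, edgeR adjusted p = 0.184). Of 30 G2 and M phase genes, 0 were called, with 2 lower at an unadjusted p under 0.05. At 3000 UMIs a Mki67 or Top2a UMI was found in 18.9% and 14.5% of Dnmt1 CKO macrophages against 23.3% and 12.4% of WT macrophages, a difference of -1.19 percentage points (exact two-sided permutation p = 1.00). Without thinning the shares were 27.7% and 26.0% in Dnmt1 CKO and 30.7% and 24.7% in WT. Thinning left out 20 and 43 Dnmt1 CKO and 17 and 17 WT macrophages. Epcam-positive barcodes had 4.86% and 4.29% in Dnmt1 CKO and 3.65% and 4.29% in WT at 3000 UMIs, with median depths of 10290 and 9406 against 9251 and 11510 UMIs.

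Monocyte genes had a negative median. Of 14 tested, 0 were called by edgeR (median -0.55). At an unadjusted p under 0.05, 0 were higher and 5 lower, against 358 and 449 of all 9570 genes. In 7 of the 14 the groups did not overlap with Dnmt1 CKO lower, against 21.0% of all genes. Plac8 stood at 27.8 and 128 CPM in Dnmt1 CKO against 231 and 341 in WT (log2 -1.80, SE 0.58, edgeR adjusted p = 0.439). Macrophage identity genes had a median near that of all genes: of 16 tested, 0 were called by edgeR, with 2 higher and 2 lower at an unadjusted p under 0.05 (median 0.10). Trem2, a DAP12-coupled lipid receptor, stood at 512 and 466 CPM in Dnmt1 CKO against 369 and 240 in WT (log2 0.71, SE 0.25, edgeR adjusted p = 0.522). Complement genes other than C1q, at a median of -0.14 over 15 tested, and growth factor and chemokine receptors, at -0.08 over 24, had 0 calls by edgeR, with 1 higher and 3 lower, and 0 higher and 1 lower, at an unadjusted p under 0.05.

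The other called genes are known from mesenchyme. Mfap4, a matrix protein gene, stood at 61.9 and 64.1 CPM in Dnmt1 CKO macrophages against 250.5 and 304 in WT ones (log2 -2.10, SE 0.21, edgeR adjusted p = 0.0159). Collagen-rich barcodes held 3511 and 5224 CPM in Dnmt1 CKO against 10820 and 9329 in WT. At 3000 UMIs Mfap4 was seen in 7.38% and 10.8% of Dnmt1 CKO and 24.2% and 21.9% of WT macrophages, and in 7.84% and 10.2% of Dnmt1 CKO and 17.8% and 14.9% of WT Epcam-positive barcodes. Tcf21 was found in 5 of 264 and 7 of 415 Dnmt1 CKO and 6 of 137 and 9 of 154 WT macrophages, with up to 16 and 13 UMIs in 1 WT barcode. Fhl1, Postn and Pdzd2 were also lower, at log2 -2.17, -2.94 and -3.45 (edgeR adjusted p = 0.0485, 0.0441 and 0.0485). Postn was found in 7 of 264 and 10 of 415 Dnmt1 CKO and 5 of 137 and 3 of 154 WT macrophages, shares that overlap. Its highest count in 1 barcode was 1 in both Dnmt1 CKO libraries and 18 and 30 in WT. For Fhl1 that count was 6 and 4 in Dnmt1 CKO and 13 and 28 in WT. In collagen-rich barcodes Postn stood at 112 and 140 CPM in Dnmt1 CKO against 80.9 and 105 in WT, not in the order seen in macrophages. Of 6 mesenchymal marker genes tested outside the rule, 0 were higher and 1 was called lower, with 5 lower at an unadjusted p under 0.05. Of 10 epithelial marker genes tested all 10 had a positive fold change (median 0.72), 0 were called by edgeR and 2 were higher at an unadjusted p under 0.05; they summed to 337 and 885 CPM in Dnmt1 CKO macrophages and to 459.8 and 369.8 CPM in WT macrophages, with overlap. The part of free RNA in these values was not tested.

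Dnmt1 itself was not called in the macrophages. It stood at 53.4 and 42.6 CPM in Dnmt1 CKO against 48.6 and 58.1 in WT (log2 -0.14, SE 0.24, edgeR adjusted p = 0.909), while collagen-rich barcodes held 9.17 and 11.9 CPM in Dnmt1 CKO against 26.4 and 25.2 in WT. Summed over 42 germline genes that DNA methylation silences, the macrophages held 48.6 and 52.3 CPM in Dnmt1 CKO against 19.3 and 20.5 in WT, where collagen-rich barcodes held 1795 and 1588 against 60.7 and 62.5 and C1q-low barcodes 45.93 and 55.75 against 15.02 and 22.82. Dazl, a germ cell RNA-binding protein gene in that list, had 4.45 and 7.18 CPM in Dnmt1 CKO macrophages and 0 UMIs in WT ones, at least 5.26-fold higher from 3 UMIs over the WT group, and 489 and 530 CPM in Dnmt1 CKO collagen-rich barcodes. Xist in the library with Y-linked UMIs, Dnmt1 CKO replicate 1, stood at 15.9 CPM in macrophages and 1905 in collagen-rich barcodes. The part of free RNA from the mesenchyme in these macrophage values was not tested.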

How the data were processed

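The authors deposited filtered gene-by-barcode matrices of UMI counts, 1 per library; Cell Ranger 3.1.0, bcl2fastq 2.20, Seurat and the build GRCm38.p6 are named per the submitters' processing notes, with no parameters. Counts were used as deposited, with no correction for free RNA. Macrophages were selected by the stated rule, their counts summed per library and tested with edgeR 4.0.16 (R 4.3.3, limma 3.58.1) after a low-count filter with TMM scaling. The fit was checked on simulated data. Genotype differences in macrophages and in other barcodes were compared in 1 fit with a library term. For the comparison with all other barcodes the newer dispersion estimator was used, a choice made after the counts of both estimators were seen. DESeq2 1.42.0 was an alternative. Detection was set at 3000 UMIs per barcode by thinning; doublets were called with Scrublet in scanpy 1.11.5, and exact tests and intervals used scipy 1.17.1 under Python 3.11.15. Figures used matplotlib 3.10.9.

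The members and the 37 gene lists were chosen with earlier results of these data known. Named genes were Dnmt1, up to 12 called genes each way in macrophages and 6 each way in each comparison with other barcodes (average log2 CPM of at least 4, no overlap between groups), up to 4 genes of smallest p per list, and the 15 marker genes of highest ratio. Postn, Pdzd2, Fth1, Csf1r, Adgre1, Lyve1, Ly6c2, Cd209a, Sftpc, Dazl and Xist, and the genes whose detection is given, were chosen after their values were seen.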

Additional observations from a re-analysis of the deposited data

Results flagged for a closer look

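The genotype difference in C1q-positive macrophages differed from that in the C1q-low barcodes of the same libraries for 12 genes, by edgeR's test of the difference itself. On the log2 scale, macrophages minus C1q-low barcodes, the differences were 5.13 for Gpnmb, 3.21 for Spp1, 1.86 for Clec4d, 1.75 for Pld3, 1.59 for Creg1, 1.27 for Ctsd, 1.07 for Fth1 and 1.05 for Lyz2. They were -3.97 for H2-Eb1, -3.97 for H2-Aa, -3.95 for H2-Ab1 and -2.86 for Cd74. The class II genes lost the call with at least 10 C1q UMIs per macrophage, and the other 8 genes kept it.

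Against all other quality-passing barcodes the genotype difference differed for 9 genes. The log2 differences were 2.87 for Gpx3, 2.68 for Cd36, 2.26 for Spp1 and 2.23 for Gstm1, and -5.06 for Ifi44, -3.51 for H2-Ab1, -3.41 for H2-Eb1, -1.92 for Ly86 and -1.92 for Cxcl10. Ly86, Gpx3 and Cxcl10 varied between the groups mainly in the other barcodes, where Cxcl10 stood at 15.8 and 20.3 CPM in Dnmt1 CKO against 8.28 and 4.99 CPM in WT. None of the 9 was called with any 1 library left out.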

How the results depend on the processing

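The count of genes called higher in Dnmt1 CKO macrophages, 2, became 122 with no low-count filter, 19 with DESeq2, 55 with a replicate block, 0 with a sex covariate, 1 without doublets, 1 with equal numbers of macrophages per library and 4 with the newer dispersion estimator. The 9 called lower became 131 with no low-count filter, 17 with DESeq2, 91 with a replicate block, 0 with a sex covariate, 2 without doublets, 2 with equal numbers and 4 with RLE normalization. Leaving out 1 library gave 0 to 147 higher and 0 to 101 lower, with the lone library assumed to vary like the others. Beyond that number the labels do not link same-numbered libraries, and shared handling was not tested. The deviations of same-numbered libraries from their group means correlated at 0.125 over 4264 genes.

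Of the 9 genes that differed from all other barcodes, the count was 15 with library size alone, 0 with no replicate block, 322 with the default estimator and 0 to 1 with 1 library left out. The 12 that differed from C1q-low barcodes became 0 with no replicate block and 24 to 38 with 1 library left out. The difference in Mki67 or Top2a share, -1.19 points, ranged between -6.65 and 4.28 with 1 library left out and turned to 0.981 without Dnmt1 CKO replicate 2 and 4.28 without WT replicate 1. None of the genes refitted under the alternatives reversed; not every named gene was refitted. The causes were not tested. Depth limits WT most, with 137 and 154 macrophages.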
